A study of Rattus norvegicus with 15 samples.

Results

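The genes described are the IGF1 axis of rat multifidus muscle. They are 10 of the 37991 genes in the deposited table, taken by symbol. They comprise the ligand Igf1, its receptor Igf1r, the binding proteins Igfbp2, Igfbp3, Igfbp4, Igfbp5, Igfbp6 and Igfbp7, and the adaptors Irs1 and Irs2. All 10 had counts, and all 10 passed the filter on low counts that left 17201 genes for testing. The multifidus is the deep muscle beside the spine. Total RNA was sequenced from 15 libraries of wild type male Sprague Dawley rats aged 12 weeks. The control group had no surgery and gave 2 libraries. The surgery group gave 2 libraries. Its rats had the laminas and a facet joint removed on the left side of the lower lumbar spine and a lumbar spinal nerve ligated, so that the model joins muscle injury with denervation. The pMT group gave 4 libraries. Its rats were operated on and 2 weeks later were injected in the left paraspinal muscles with mitochondria isolated from human plasma (pMT), 25 μg at each of 2 sites and 50 μg per rat. The VitD group gave 3 libraries from operated rats injected with cholecalciferol (vitamin D), 150 μg per site and 300 μg per rat. The pMT/VitD group gave 4 libraries from operated rats given both agents at these doses. Tissue was taken 2 weeks after the pMT injection, with control and surgery tissue taken at the same time, and the days for both groups with vitamin D are not stated. All treated groups thus carried the same surgery, and no group received an agent without it. The surgery rats had no treatment after surgery, and no group injected with buffer alone is described. Against the surgery group, an agent and its injection therefore cannot be told apart.

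IGF1 is a growth factor made by the liver and, locally, by muscle fibres, fibroblasts and macrophages. It binds the tyrosine kinase receptor encoded by Igf1r, which phosphorylates the docking proteins IRS1 and IRS2 and so engages PI3 kinase and AKT, a route known for raising protein synthesis and restraining breakdown in muscle. The secreted IGF binding proteins hold IGF1 and IGF2 outside the cell, prolong their life or keep them from the receptor, and several are cleaved by proteases that free the ligand. IGFBP7 is a more distant relative that binds IGFs weakly.

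Libraries held 52342134 to 73557878 counts, with a median of 64352162. Levels are given as CPM, a gene's counts as a share of its library's total scaled by edgeR's TMM factors, and levels of different genes are compared as the authors' TPM, which are per length. Muscle fibre markers (8 listed genes, among them Ckm, Acta1 and Ttn, none at 0) summed to 97095 to 174811 CPM, so muscle fibre RNA was present in every library. They do not tell the multifidus from other skeletal muscles. Replicate 4 of the pMT group and replicate 4 of the pMT/VitD group stood apart from their groups. Across genes, the rank correlation of gene length with a library's deviation from all libraries was -0.32 in pMT replicate 4, where replicates 1 to 3 had 0.02 to 0.45. It was 0.15 in pMT/VitD replicate 4, where replicates 1 to 3 had -0.39 to -0.17. On this measure each of these libraries lay within the range of replicates 1 to 3 of the other group. Why they did was not tested, and it bears on every comparison of the pMT and pMT/VitD groups. Genes of the mitochondrial genome took 22.6% of counts in pMT replicate 4 and 10.7% to 17.7% elsewhere. Results are therefore also given without both replicate 4 libraries. VitD replicate 1 stood apart as well. A chi-square of counts between it and the other VitD libraries was 240 and 429 per degree of freedom, and 31.4 between the other pair. It was left out only where each library was left out in turn. The 2 surgery libraries were the closest pair, at 5.07 per degree of freedom against 25.8 to 535 in all other pairs within a group. Why they were so close was not tested. The labels do not say whether each library came from a separate rat, so p-values measure the spread between these libraries, which may be technical.

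Promoters are shown for the 3 members with a called difference, Igfbp4, Igf1 and Igf1r, as the 250 bases before the RefSeq start site in assembly GRCr8. Igfbp4 lies on chr10:84491221-84491470, Igf1 on chr7:24172282-24172531 and Igf1r on chr1:130959747-130959996, all on the plus strand. Capitals mark a match to a searched motif.
Igfbp4: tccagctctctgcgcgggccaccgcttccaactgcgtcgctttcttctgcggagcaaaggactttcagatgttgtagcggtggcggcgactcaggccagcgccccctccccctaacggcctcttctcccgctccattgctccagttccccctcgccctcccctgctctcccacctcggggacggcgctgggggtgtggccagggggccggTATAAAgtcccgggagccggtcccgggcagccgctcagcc
Igf1: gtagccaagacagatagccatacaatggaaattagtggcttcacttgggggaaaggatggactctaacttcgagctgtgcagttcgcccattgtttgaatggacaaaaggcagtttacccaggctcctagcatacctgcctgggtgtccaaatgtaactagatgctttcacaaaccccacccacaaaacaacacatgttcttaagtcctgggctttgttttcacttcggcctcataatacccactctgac
Igf1r: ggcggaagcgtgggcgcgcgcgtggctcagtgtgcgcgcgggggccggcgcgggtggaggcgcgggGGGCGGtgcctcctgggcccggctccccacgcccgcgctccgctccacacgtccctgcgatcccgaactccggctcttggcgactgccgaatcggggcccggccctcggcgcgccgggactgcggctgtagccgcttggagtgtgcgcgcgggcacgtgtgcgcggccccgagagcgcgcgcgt
These 3 windows differed in base composition, with 68.8% G and C in Igfbp4, 46.8% in Igf1 and 79.6% in Igf1r. Both strands were searched for the TATA box TATAAA, the GC box GGGCGG, the CCAAT box (its name gives its letters), the E box CAGCTG, the FOXO site GTAAACA and, of the kind the vitamin D receptor binds, a direct repeat of AGGTCA with 3 bases between the copies. Igfbp4 held a TATA box 40 to 35 bases before the start, a motif found in 12.9% of 33469 promoter windows of this length. Igf1r held a single GC box (30.5% of windows), and Igf1 held none of the 6 motifs. RefSeq windows were matched for 9 of the 10 members, all but Irs2. Among the others, Igfbp7 held 4 GC boxes, Irs1 2 GC boxes and an E box, Igfbp2 a GC box, and Igfbp6 2 E boxes (12.0% of windows) and a FOXO site (3.21%). Igfbp3 and Igfbp5 held none. No member's window held a CCAAT box or the direct repeat, which were in 34.0% and 0.0209% of windows.

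Per length, the binding proteins spanned the whole range of the axis. In the authors' TPM, the medians over the 15 libraries were 156 for Igfbp7, 110 for Igfbp6, 32.1 for Igfbp4, 27.3 for Igfbp5, 25.4 for Igf1 and 17.7 for Igfbp3. The intracellular adaptors were lower, at 5.57 for Irs2 and 2.85 for Irs1, and the receptor Igf1r lower again at 0.700. Igfbp2 was close to absent, with a median of 0.0641. Igfbp3 varied least between libraries among the 9 members above the floor, with a highest CPM 1.28 times its lowest, and Igfbp5 varied most, at 6.57 times.

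**Figure D1:**
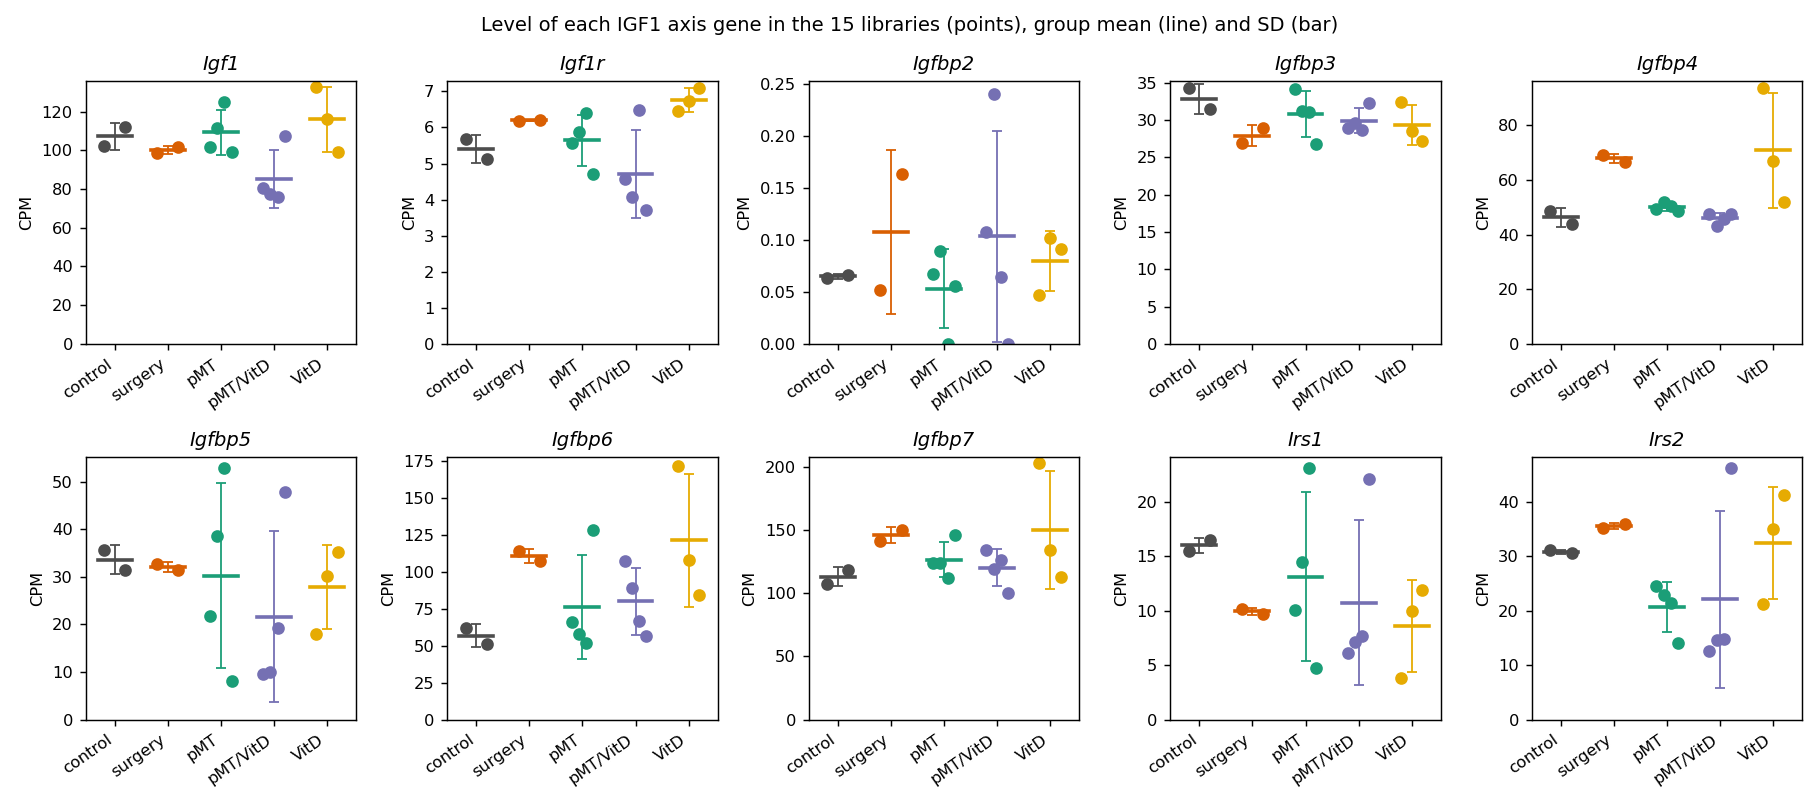
Each panel shows 1 gene, with TMM-scaled CPM on the vertical axis from 0 and the 5 groups along the horizontal axis. Points are libraries, lines are group means and bars are 1 SD, and Igfbp4 lies above 66 CPM in both surgery libraries and in 2 of the 3 VitD libraries while every control, pMT and pMT/VitD library lies below 53.

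The binding protein gene Igfbp4 differed between the groups and was the only member called in the test for any difference among the 5 groups. IGFBP4 is a secreted inhibitor of IGF action that is cleaved by the protease PAPP-A. Its mean was 67.8 ± 1.63 CPM (SD, n = 2) after surgery and 70.8 ± 21.1 CPM (n = 3) with VitD, against 46.3 ± 3.41 CPM (n = 2) in controls, 50.0 ± 1.501 CPM (n = 4) with pMT and 45.9 ± 2.10 CPM (n = 4) with pMT/VitD. The adjusted p of this test was 0.0233 (edgeR quasi-likelihood F-test, Benjamini-Hochberg over all genes). With 1 of 10 members called against 11.8% of all tested genes, the members' share was near the background. The call of Igfbp4 was lost without control replicate 2, surgery replicate 1, surgery replicate 2 or VitD replicate 2, with adjusted p from 0.00186 to 0.0645 on leaving out each library.

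In the control libraries Igfbp4 stood at 48.7 and 43.8 CPM, and in the surgery libraries at 69.0 and 66.7 CPM. In the pMT libraries it stood at 49.4, 52.0, 50.3 and 48.4 CPM, and in the pMT/VitD libraries at 47.3, 43.0, 45.8 and 47.6 CPM. The VitD libraries were at 93.6, 66.8 and 52.0 CPM. Both surgery libraries were above every control, pMT and pMT/VitD library, and the VitD libraries ran from the top of the pMT range to beyond the surgery libraries. The deposited TPM had the same separation, with 47.6 and 49.3 after surgery, 25.3 and 28.0 in controls and 22.7 to 38.1 with pMT. Ordered by mean, the groups ran VitD, surgery, pMT, control and pMT/VitD, and no neighbouring pair that was compared passed the test.

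Surgery against control gave no called member, while 1.55% of all tested genes were called. The log2 fold change of Igfbp4 was 0.55 (SE 0.19, adjusted p = 0.148), so it did not pass. Both surgery libraries lay above both control libraries, and the share of all genes that separate in this way was not computed. At an unadjusted p under 0.05 there were 2 members, Igfbp4 and Igfbp6, and 2923 of the 17201 genes, and DESeq2 called 0 members. Fitted to the surgery and control libraries alone, 5 members passed (Igfbp4, Igfbp6, Igfbp7, Irs1 and Irs2), as did 5289 of all genes. The spread was then estimated from 2 libraries a group, with the surgery pair the closest of all replicate pairs. On leaving out each library, the adjusted p of Igfbp4 ran from 0.0168 to 0.511. The lowest was without VitD replicate 1, the library with the highest Igfbp4, where the log2 fold change was still 0.55. That library is in neither group compared. Leaving it out changes the spread the test uses, and also the filter, the TMM factors and the adjustment over all genes.

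In VitD against control Igfbp4 rose, with a log2 fold change of 0.61 (SE 0.18, adjusted p = 0.0444). It was the single member called of 10, where 8.67% of all tested genes were called and 5.48% called higher. This call lay close to the threshold. It was lost when any of 12 of the 15 libraries was left out, with adjusted p from 0.00414 to 0.260, and the log2 fold change dropped to 0.36 without VitD replicate 1. VitD against surgery gave 0 called members and 0% of all genes called, with 0 members and 139 genes at an unadjusted p under 0.05 and 0 members by DESeq2. The log2 difference of Igfbp4 there was 0.06, with a 95% interval from -0.31 to 0.43.

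Both groups that received pMT held Igfbp4 near the control level. In pMT against surgery its log2 fold change was -0.44 (SE 0.16, adjusted p = 0.208), so it did not pass. All 4 pMT libraries lay below both surgery libraries, and the share of all genes that separate in this way was not computed. That comparison called 0 members against 1.94% of all genes, with 1 member (Igfbp4) and 2455 genes at an unadjusted p under 0.05. DESeq2 and the exactTest rule of at least a 2-fold change with unadjusted p under 0.05 each called 0 members. On leaving out each library, the adjusted p of Igfbp4 ran from 0.0250 to 0.736. The lowest was without VitD replicate 1, which is in neither group compared, with the log2 fold change still at -0.44. In a fit of the pMT and surgery libraries alone, the log2 fold change was -0.45 with an adjusted p of 0.0341.

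In pMT/VitD against surgery Igfbp4 fell by 0.56 on the log2 scale (SE 0.16, adjusted p = 0.0480), 1 of 10 members against 7.44% of all genes and 5.03% called lower. The call was lost on leaving out any of 11 of the 15 libraries, while the log2 fold change stayed between -0.59 and -0.53. It fell by 0.63 in pMT/VitD against VitD (SE 0.14, adjusted p = 0.00783). Here 3 of 10 members were called, all lower, against 21.9% of all genes and 12.2% called lower. The call for Igfbp4 held on leaving out each library in turn, with adjusted p from 0.000624 to 0.0315, and its log2 fold change was -0.37 without VitD replicate 1. Fitted to the pMT/VitD and VitD libraries alone, it did not pass (adjusted p = 0.0553), and neither did Igf1 (adjusted p = 0.105) or Igf1r (adjusted p = 0.108). Neither pMT against control nor pMT/VitD against control called a member, at 0% of all genes in each, with 0 members in either at an unadjusted p under 0.05 and 0 by DESeq2. The 95% interval of the log2 difference of Igfbp4 from control was -0.24 to 0.46 for pMT and -0.36 to 0.34 for pMT/VitD.

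Of the summed cell type markers, those of fibroblasts, macrophages and denervated fibres moved with Igfbp4, and only these are given in full. In the other lists, the pMT and surgery libraries overlapped. Pericyte and smooth muscle markers summed to 132 to 226 CPM with pMT and 186 to 194 CPM after surgery. Schwann markers summed to 59.7 to 74.9 CPM with pMT and 70.2 to 75.8 CPM after surgery. The 6 fibroblast markers (Pdgfra, Dcn, Lum, Col1a1, Col3a1 and Pi16) summed to 4312 and 4335 CPM in the surgery libraries and to 3650 to 6747 CPM with VitD. In the control libraries they summed to 2522 and 2544 CPM, with pMT to 2447 to 2903 CPM and with pMT/VitD to 1846 to 2718 CPM. The 7 macrophage markers, such as Cd68 and Csf1r, were at 338 and 343 CPM after surgery, 306 to 434 CPM with VitD, 177 and 188 CPM in controls and 114 to 205 CPM in the libraries given pMT with or without VitD. The 7 denervated fibre markers, such as Chrna1 and Myog, were at 450 and 457 CPM after surgery and 211 to 1184 CPM with VitD, against 68.1 to 113 CPM in all other libraries. No listed marker of these types was at 0 in any library. Between pMT/VitD and VitD, 4 of 6 fibroblast, 7 of 7 macrophage and 7 of 7 denervated fibre markers were called lower. Over all genes, 12.2% were called lower there. The same comparison called 2 of 8 muscle fibre markers higher, against 1662 of 17201 genes. Fewer were called in surgery against control (1.55% of all genes), with 0 fibroblast, 1 macrophage and 4 denervated fibre markers higher. In pMT against surgery (1.94% of all genes), 1 fibroblast, 3 macrophage and 7 denervated fibre markers were lower. VitD replicate 1, with the highest Igfbp4, also had the highest sum of the fibroblast, macrophage and denervated fibre lists. In bulk tissue, fewer cells of a type and less RNA per cell cannot be told apart, and the part of these cell types in the level of Igfbp4 was not tested.

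**Figure D2:**
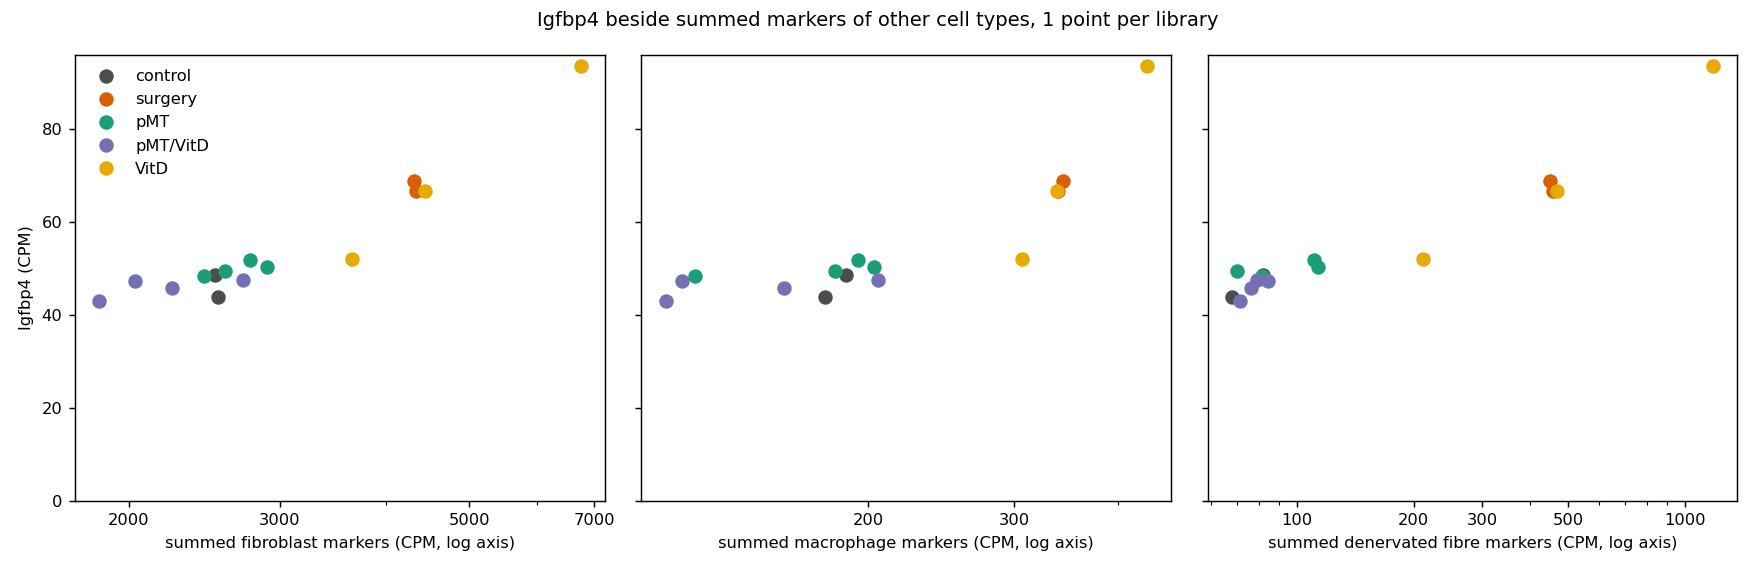
Igfbp4 in CPM (vertical axis, from 0) is plotted against the summed CPM of fibroblast, macrophage and denervated fibre markers (horizontal log axes), 1 point per library. The 2 surgery and 3 VitD libraries have the highest sums in each panel, and VitD replicate 1, at 93.6 CPM of Igfbp4, has the highest of all.

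Over the 15 libraries, the genes with a pattern most like that of Igfbp4 among 7803 candidates (mean log2 CPM no lower than 3) were RGD1564664, Fscn1 and Gm2a. Pearson's r of log2 CPM was 0.972 for RGD1564664 and 0.969 for both Fscn1 and Gm2a. These r values describe 15 libraries of 5 groups in which many genes moved together, and Igfbp4 was the only member for which they were computed.

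Igf1 itself was lower in muscle given pMT with VitD than in muscle given VitD alone. Its level was 102 and 112 CPM in the control libraries, 98.8 and 102 CPM after surgery and 102, 112, 125 and 99.0 CPM with pMT. The VitD libraries were at 133, 116 and 99.1 CPM, and the pMT/VitD libraries at 80.4, 77.7, 75.8 and 107 CPM. Of the pMT/VitD libraries, 3 were below every other library of the series, and replicate 4 lay inside the range of the other groups. Group means ran VitD (116 ± 16.7 CPM, n = 3), pMT (109 ± 11.7, n = 4), control (107 ± 6.98, n = 2), surgery (100.3 ± 2.12, n = 2) and pMT/VitD (85.3 ± 14.9, n = 4), and no neighbouring pair that was compared passed the test.

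Igf1 fell by 0.44 on the log2 scale in pMT/VitD against VitD (SE 0.14, adjusted p = 0.0345). The call was lost on leaving out any of 7 libraries (both surgery libraries, pMT/VitD replicates 1, 2 and 3, and VitD replicates 1 and 2), with adjusted p from 0.00467 to 0.151. With the trend on gene length removed, the log2 fold change of Igf1 was -0.31 (adjusted p = 0.0598). In surgery against control Igf1 had a log2 fold change of -0.10 (SE 0.18, adjusted p = 0.825) and in pMT against surgery 0.12 (SE 0.16, adjusted p = 0.800). Scaling by library size alone turned the first to 0.17 and the second to -0.01.

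For pMT/VitD against pMT, Igf1 had the smallest unadjusted p of the members, with a log2 fold change of -0.36 (SE 0.13, adjusted p = 0.452). That comparison called 0 members and 0% of all genes, with 1 member and 1737 genes at an unadjusted p under 0.05 and 0 members by DESeq2. The interaction of pMT and VitD, which asks whether pMT had another effect with VitD than without it, was -0.57 for Igf1 (SE 0.21, adjusted p = 0.899). Any effect of the injection is part of it, since the surgery rats had no treatment after surgery. Again 0 members and 0% of genes were called, with 1 member and 888 genes at an unadjusted p under 0.05 and 0 members by DESeq2. Without both replicate 4 libraries, the value in pMT/VitD against pMT was -0.53 (adjusted p = 0.00900) and the interaction -0.74 (adjusted p = 0.0493) for Igf1. In that refit 3136 and 325 of all genes were called. It leaves out pMT/VitD replicate 4, which had the highest Igf1 of its group (107 CPM against 75.8 to 80.4 CPM). These libraries were left out with their values known, so the refit is no independent support for a difference of Igf1.

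The receptor gene Igf1r was likewise lower with pMT/VitD than with VitD. It was at 5.68 and 5.13 CPM in controls, 6.19 and 6.21 CPM after surgery and 5.56, 5.89, 6.41 and 4.71 CPM with pMT. The VitD libraries held 6.45, 6.74 and 7.11 CPM, above all but 1 other library. The pMT/VitD libraries held 4.58, 4.08, 6.47 and 3.70 CPM, of which 3 were the lowest of the series and replicate 3 overlapped with VitD. The log2 fold change was -0.52 (SE 0.17, adjusted p = 0.0358). It lost the call without any of 8 libraries, with adjusted p from 0.00393 to 0.0955, and with the gene length trend removed it was -0.33 (adjusted p = 0.153). Igf1r had a log2 fold change of 0.20 (SE 0.22, adjusted p = 0.691) in surgery against control and of -0.13 (SE 0.19, adjusted p = 0.818) in pMT against surgery. By group mean it ran VitD, surgery, pMT, control and pMT/VitD, with no neighbouring pair past the test. The part of gene length in the differences of Igf1 and Igf1r was not tested beyond these refits.

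**Figure D3:**
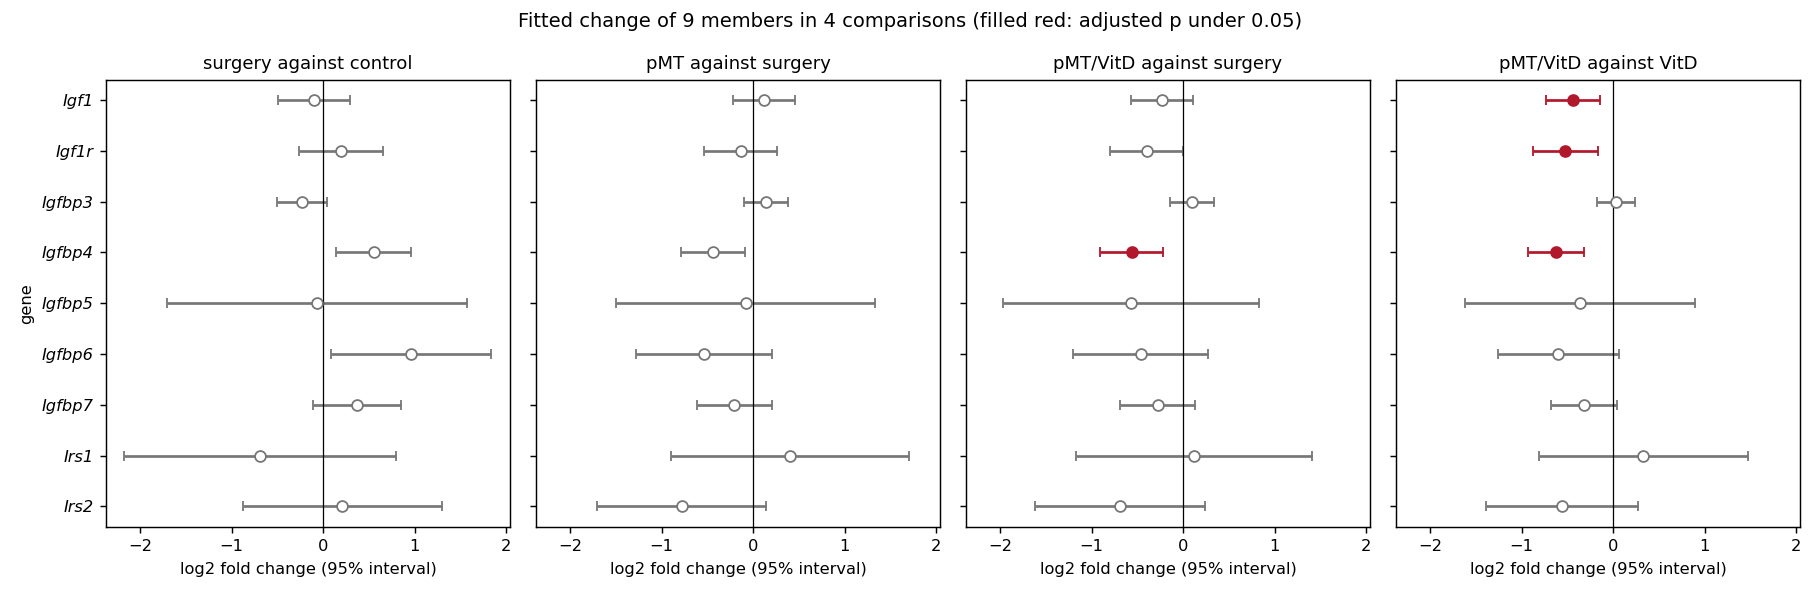
The fitted log2 fold change (horizontal axis) of 9 members (vertical axis, Igfbp2 left out because it was near the floor) in 4 comparisons, with 95% intervals. Filled red points are called (Igfbp4 in pMT/VitD against surgery, and Igf1, Igf1r and Igfbp4 in pMT/VitD against VitD), and the intervals of Igfbp5 and Irs1 are the widest.

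Igfbp6 and Igfbp7 were the most abundant members per length. IGFBP6 prefers IGF2 over IGF1 as its ligand. Igfbp6 was at 62.0 and 51.2 CPM in controls and 114 and 107 CPM after surgery, and the VitD libraries held 171, 108 and 84.5 CPM. The pMT libraries were at 66.2, 57.6, 51.9 and 128 CPM and the pMT/VitD libraries at 107, 89.2, 66.8 and 56.6 CPM. Surgery and VitD libraries were all above both control libraries, and pMT replicate 4 exceeded both surgery libraries while the other pMT libraries lay near the controls. The log2 fold change of Igfbp6 was 0.96 in surgery against control (SE 0.41, adjusted p = 0.247) and -0.54 in pMT against surgery (SE 0.35, adjusted p = 0.537). Without pMT replicate 4 the latter was -0.91 (adjusted p = 0.114). In VitD against control it did not pass (adjusted p = 0.0896), and there DESeq2 called it at 1.12 (adjusted p = 0.0273). Without both replicate 4 libraries it was 1.13 (adjusted p = 0.0171), and without VitD replicate 1 it was 0.76 (adjusted p = 0.320).

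Igfbp7, known also as an endothelial and matrix protein, was at 107 and 118 CPM in controls, 142 and 150 CPM after surgery and 203, 134 and 113 CPM with VitD. The pMT libraries held 124, 124, 112 and 146 CPM and the pMT/VitD libraries 134, 119, 127 and 100.4 CPM. The surgery libraries lay above the control and pMT/VitD libraries, and the other groups overlapped. The log2 fold change was 0.37 in surgery against control (SE 0.22, adjusted p = 0.428) and -0.21 in pMT against surgery (SE 0.19, adjusted p = 0.700).

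Igfbp5, Irs1 and Irs2 varied widely within the pMT and pMT/VitD groups and were not called in any test. IGFBP5 binds matrix and IGFs and is abundant in muscle. Igfbp5 was at 35.7 and 31.4 CPM in controls, 32.8 and 31.3 CPM after surgery and 18.0, 30.1 and 35.2 CPM with VitD. The pMT libraries ran 21.7, 38.5, 52.7 and, in replicate 4, 8.02 CPM. The pMT/VitD libraries ran 9.46, 9.94, 19.2 and, in replicate 4, 47.7 CPM. So the 2 replicate 4 libraries lay at opposite ends, pMT replicate 4 with the lowest Igfbp5 of the series and pMT/VitD replicate 4 with the second highest. The log2 fold change was -0.07 in surgery against control (SE 0.76, adjusted p = 0.976) and -0.08 in pMT against surgery (SE 0.66, adjusted p = 0.976). The second turned to 0.22 without both of these libraries.

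IRS1 and IRS2 dock PI3 kinase to the activated receptor. Irs1 was at 15.5 and 16.5 CPM in controls and 10.1 and 9.72 CPM after surgery. The VitD libraries held 3.81, 9.97 and 11.9 CPM, the pMT libraries 10.1, 14.5, 23.2 and 4.75 CPM and the pMT/VitD libraries 6.12, 7.10, 7.70 and 22.1 CPM. Every VitD library was below both controls, and again the replicate 4 libraries lay apart from their groups in opposite directions. Irs1 had a log2 fold change of -0.69 in surgery against control (SE 0.69, adjusted p = 0.657) and of 0.41 in pMT against surgery (SE 0.60, adjusted p = 0.833).

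Irs2 was at 31.1 and 30.6 CPM in controls, 35.2 and 36.0 CPM after surgery and 21.2, 35.04 and 41.3 CPM with VitD. The pMT libraries held 24.6, 22.8, 21.4 and 14.02 CPM, all below the control and surgery libraries. The pMT/VitD libraries held 12.5, 14.7, 14.8 and, in replicate 4, 46.3 CPM, the highest Irs2 of the series. The log2 fold change was 0.21 in surgery against control (SE 0.51, adjusted p = 0.874) and -0.78 in pMT against surgery (SE 0.43, adjusted p = 0.449).

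**Figure D4:**
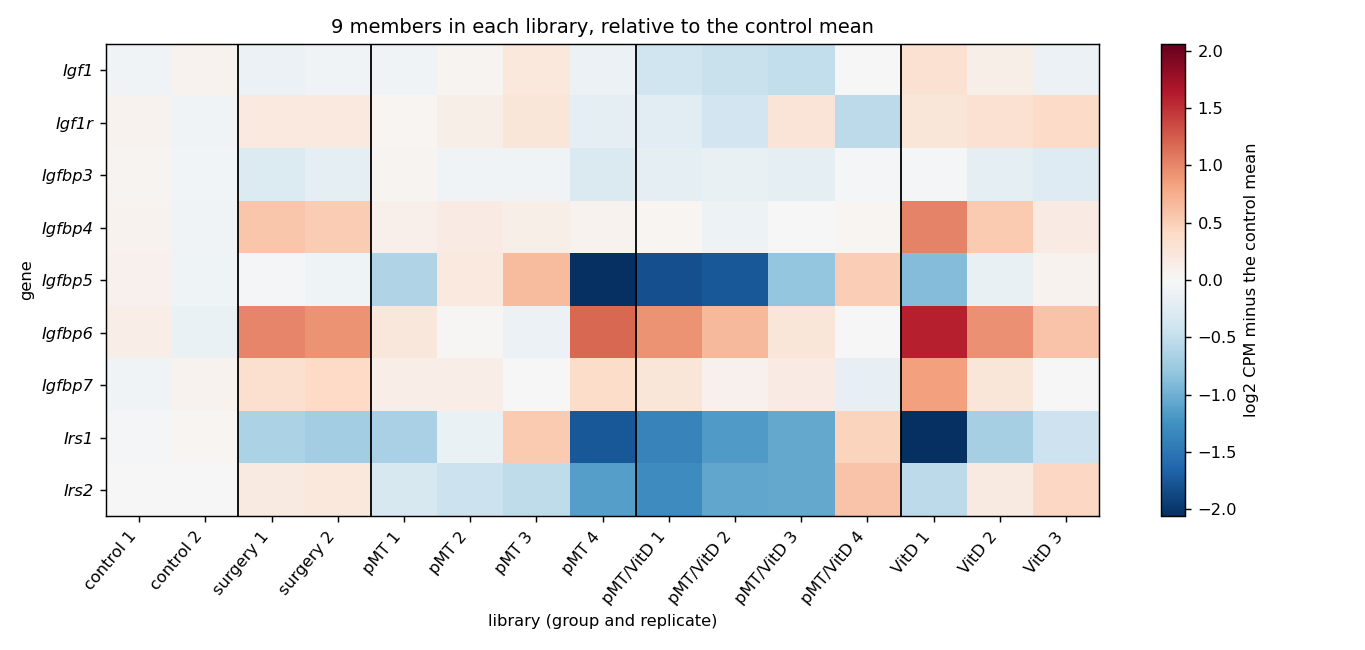
Each cell is the log2 CPM of 1 gene (vertical axis) in 1 library (horizontal axis) minus the mean of the 2 control libraries, with red above and blue below. Igfbp5, Irs1 and Irs2 are blue in pMT replicate 4 and in pMT/VitD replicates 1 to 3 and red in pMT/VitD replicate 4, where Igfbp5 ranges from 8.02 to 47.7 CPM.

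Without both replicate 4 libraries, more members passed, and so did more of all genes. With all 15 libraries, 2035 of all genes were called for any difference and 0 in pMT/VitD against pMT. The pMT/VitD group differed in 1279 genes from surgery and in 3766 from VitD. Without the replicate 4 libraries, the test for any difference called 5 members (Igfbp4, Igf1, Igfbp5, Igfbp6 and Irs2) against 5125 of all genes. In pMT/VitD against pMT there were 4 against 3136 of all genes, namely Igf1, Igfbp5 at -1.55 (adjusted p = 0.0133), Irs1 at -1.19 (adjusted p = 0.0430) and Irs2 at -0.71 (adjusted p = 0.0159) on the log2 scale. In pMT/VitD against surgery Irs2 was at -1.36 (adjusted p = 0.00105) and Igfbp5 at -1.33 (adjusted p = 0.0321), beside Igfbp4 at -0.59 (adjusted p = 0.0333), 3 members against 3462 of all genes. Against VitD, 5 members were lower in pMT/VitD, where 5497 of all genes were called, with Irs2 at -1.22 (adjusted p = 0.000418) and Igfbp5 at -1.12 (adjusted p = 0.0312) joining Igf1 at -0.58, Igf1r at -0.43 and Igfbp4 at -0.65. These libraries were left out with their values known, and taking out the most distant libraries of these genes narrows the spread the test uses. The remaining pMT/VitD libraries were also those with more negative length correlations, and the part of gene length or of the mitochondrial share in the levels of Igfbp5, Irs1 and Irs2 was not tested.

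The other binding proteins showed no called difference in any of the 11 tests. Igfbp3, which carries most IGF in the circulation, was at 34.3 and 31.4 CPM in controls, 27.0 and 28.9 CPM after surgery and 34.2, 31.3, 31.0 and 26.8 CPM with pMT. The pMT/VitD libraries held 29.0, 29.7, 28.6 and 32.4 CPM and the VitD libraries 32.4, 28.6 and 27.1 CPM. Its log2 fold change was -0.23 in surgery against control (SE 0.13, adjusted p = 0.377) and 0.14 in pMT against surgery (SE 0.11, adjusted p = 0.638), with 95% intervals from -0.51 to 0.04 and from -0.10 to 0.38. Scaling by library size alone turned the value for surgery against control to 0.03. Igfbp2 had 0 to 13 counts per library and was at 0 in pMT replicate 3 and pMT/VitD replicate 4, which allows up to 0.0413 and 0.0584 CPM at a limit of 3 counts (counting error only). At this depth no difference of Igfbp2 was detectable. Its fitted log2 fold changes, 0.71 in surgery against control (SE 1.25, adjusted p = 0.814) and -0.99 in pMT against surgery (SE 1.06, adjusted p = 0.749), had wide errors.

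A list of 50 further genes of IGF and insulin signalling was examined beside the members, and 47 of them passed the filter. In the test for any difference 4 of the 47 were called (Shc1, Igf2, Cish and Eif4ebp1), against 11.8% of all genes. Surgery against control and pMT against surgery each called 0 of the 47, with 6 and 5 at an unadjusted p under 0.05. Over all genes these comparisons called 1.55% and 1.94%, with 2923 and 2455 of 17201 at an unadjusted p under 0.05. VitD against control called 2, both higher, against 8.67% of all genes. The pMT/VitD and VitD groups differed in 8, 4 higher and 4 lower, where 21.9% of all genes were called. The other 6 comparisons called 0, with 0 to 10 at an unadjusted p under 0.05. Of these, pMT/VitD against surgery called 7.44% of all genes and the rest called 0%. The median log2 fold change of the list in pMT/VitD against VitD was 0.08, against 0 over all genes, while that of the 10 members was -0.40.

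Among the ligands and receptors, Igf2, the second IGF and a growth factor of developing and regenerating muscle, was the only gene called. It was at 121 and 118 CPM in controls and 303 and 301 CPM after surgery, and at 473, 301 and 242 CPM with VitD. The pMT libraries held 153, 128, 106 and 260 CPM and the pMT/VitD libraries 197, 150, 150 and 91.0 CPM. All surgery libraries exceeded all pMT and pMT/VitD libraries, and VitD overlapped with pMT only through pMT replicate 4. Igf2 rose by 1.51 in VitD against control (SE 0.38, adjusted p = 0.0287) and fell by 1.20 in pMT/VitD against VitD (SE 0.30, adjusted p = 0.0122). The first call was lost without control replicate 1, control replicate 2 or VitD replicate 1, and the second without VitD replicate 1. The first also did not pass in a fit of these groups alone (adjusted p = 0.0690). In surgery against control its value of 1.34 did not pass (SE 0.40, adjusted p = 0.103).

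In the growth hormone branch, Cish, a feedback inhibitor induced by STAT5, moved in the opposite direction to Igf2. It was at 73.0 and 65.9 CPM in controls, 32.2 and 31.4 CPM after surgery and 6.87, 32.2 and 39.2 CPM with VitD. The pMT libraries held 70.4, 77.7, 85.3 and 84.3 CPM and the pMT/VitD libraries 80.9, 79.3, 74.5 and 72.9 CPM. Every surgery and VitD library lay below every control, pMT and pMT/VitD library. Cish rose by 1.56 in pMT/VitD against VitD (SE 0.38, adjusted p = 0.0108), a call kept on leaving out each library but not in a fit of these groups alone (adjusted p = 0.0637). Its value of -1.13 in surgery against control did not pass (SE 0.48, adjusted p = 0.247), nor did 1.32 in pMT against surgery (SE 0.44, adjusted p = 0.158). Ghr, the growth hormone receptor and the most abundant gene of the branch, was at 209 and 228 CPM in controls, 137 and 147 CPM after surgery and 181 to 213 CPM with pMT, with log2 fold changes of -0.63 in surgery against control (SE 0.26, adjusted p = 0.227) and 0.51 in pMT/VitD against VitD (SE 0.20, adjusted p = 0.0784).

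Of the 7 proteases of binding proteins and their inhibitors, Htra1, which cleaves IGFBP5, was the most abundant. It rose in VitD against control by 0.66 (SE 0.20, adjusted p = 0.0485) and fell in pMT/VitD against VitD by 0.48 (SE 0.16, adjusted p = 0.0431). These calls were lost without any of 12 and 11 libraries, and without VitD replicate 1 the log2 fold changes of Htra1 were 0.40 and -0.22. Adam12, which also cleaves binding proteins, fell in pMT/VitD against VitD by 0.72 (adjusted p = 0.0179) and was named after its value was seen. Among the adaptors, Shc1, which links the receptor to the RAS route, fell in pMT/VitD against VitD by 0.60 (SE 0.13, adjusted p = 0.00512), from 31.5 to 43.9 CPM to 21.4 to 27.5 CPM. Grb14, an inhibitor of the insulin receptor and the most abundant adaptor, did not pass there, with a log2 fold change of 0.26 (SE 0.09, adjusted p = 0.0614).

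In the kinase cascade, 3 of 25 genes were called in pMT/VitD against VitD, against 21.9% of all genes, so the count was not above the background. All 3 were higher. Eif4ebp1, a repressor of translation that mTOR switches off, rose by 0.61 (SE 0.13, adjusted p = 0.00424), with VitD at 34.8 to 40.8 CPM and pMT/VitD at 49.1 to 66.5 CPM. Rheb, the GTPase that activates mTOR, rose by 0.51 (SE 0.15, adjusted p = 0.0257), a call lost without pMT/VitD replicate 1 or 2 or VitD replicate 1 or 2. Akt1 rose by 0.29 (SE 0.10, adjusted p = 0.0466) and was named after its value was seen. Scaled by library size alone, the changes of Eif4ebp1 and Rheb were 0.27 (adjusted p = 0.0642) and 0.16 (adjusted p = 0.308), since that scaling moved the median of all genes in this comparison to -0.34.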

How the data were processed

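Upstream tools of the authors were Trimmomatic 0.38 for trimming, HISAT2 2.1.0 for alignment to the rn6 build, SAMtools 1.9 for sorting and StringTie 2.1.3b for quantification on RefSeq genes. The deposited counts are whole numbers of reads for each gene, not normalized, and were used for all tests. The TPM, which the authors scaled by gene length and library total, were used only to compare genes and to derive relative gene lengths. Deposited FPKM were not used. Handling of strand and of multiply aligned reads is not given in the sources used here.

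Counts were analysed in R 4.3.3 with edgeR 4.0.16 (TMM factors, filterByExpr, glmQLFit with robust estimation and glmQLFTest) on all 15 libraries, with group as the only term. There were 11 tests, namely any difference among the 5 groups, 9 pairs and the interaction of pMT and VitD. Comparisons that share a group share its libraries. A gene was called at an adjusted p (Benjamini-Hochberg over all 17201 genes) under 0.05. Log2 CPM used a prior count of 2. Where libraries of 1 group are said to lie above or below those of another, this only describes their values. The share of all genes that separate in this way was not computed. Depth was 52342134 to 73557878 counts per library. Replicates of a group differed by more than sampling noise in every pair, and least in the surgery pair. Alternatives were RLE factors, library size only, no filter, DESeq2 1.42.0, only the groups compared, a replicate block, a gene length trend removed by offsets, leaving out each library or both replicate 4 libraries, and, for pMT against surgery, exactTest.

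The members and lists were chosen with earlier results of these data known. All 10 members were described. Named from the list of 50 were the 4 genes with the lowest p in the test for any difference and the most abundant gene of each branch, and others are marked as named after their values were seen. Similar genes were named for members called in that test.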

Additional observations from a re-analysis of the deposited data

Results flagged for a closer look

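In pMT/VitD replicate 4, 3 members lay far from the other libraries of the group, with a gap to the nearest library that was above Dixon's 95% critical share of the group's whole range for 4 samples. Igf1 was at 107.45 CPM against 75.8 to 80.4 CPM, Irs1 at 22.07 CPM against 6.12 to 7.70 CPM, and Irs2 at 46.26 CPM against 12.5 to 14.8 CPM. The gap took 0.854, 0.901 and 0.934 of the range. Of the 20 sets of 4 libraries examined (10 members in 2 groups), 3 were marked, where chance marks about 1 in 20. The 3 values come from a single library, so they are not independent of each other. That library also had a length correlation of 0.15 where the rest of its group had -0.39 to -0.17, and the part of this in the levels was not tested.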

How the results depend on the processing

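Calls over all genes also moved under these settings, from 1080 to 5125 for any difference and as given below for other comparisons. A change in the count of members is thus not by itself particular to them. In the test for any difference, 1 member was called, against 4 with library size only, 2 with the gene length trend removed, 5 without both replicate 4 libraries and 0 with the replicate block, and 0 to 3 on leaving out each library. VitD against control (1) had 3 with library size only, 2 each with DESeq2, the length trend removed and without both replicate 4 libraries, 0 each with no filter and only the groups compared, and 0 to 2 on leaving out each library. In pMT/VitD against surgery (1) there were 3 each with library size only and without both replicate 4 libraries, 0 each with RLE factors, no filter and the replicate block, and 0 to 2 on leaving out each library. For pMT/VitD against VitD (3) there were 5 each with library size only and without both replicate 4 libraries, 0 with only the groups compared, and 1 to 3 on leaving out each library. With the length trend removed its 3 called members were Igfbp4, Igfbp6 and Igfbp7, so that Igf1 and Igf1r lost their calls, and with the replicate block 2 were called (Igfbp4 and Igf1r). Surgery against control (0) had 5, and pMT against surgery (0) had 1, with only the groups compared, each with 0 to 1 on leaving out a library. Without both replicate 4 libraries, pMT/VitD against pMT (0) had 4 and the interaction (0) had 1, where 3136 and 325 of all genes were called. The cause of these changes was not tested, apart from the fewer libraries that some alternatives fit by construction.

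Directions turned for values that had not passed. In surgery against control, library size only gave 0.17 for Igf1, 0.0329 for Igfbp3 and 0.20 for Igfbp5. On leaving out each library, Igfbp5 ran from -0.15 to 0.0299 (the latter without control replicate 1) and Igfbp2 from -0.32 (without surgery replicate 2) to 1.31. In pMT against surgery, library size only gave -0.0104 for Igf1 and, without both replicate 4 libraries, Igfbp5 was 0.22. On leaving out each library, Igfbp5 ran from -0.49 to 0.23 (above 0 without pMT replicate 1 or 4), Irs1 from -0.0166 (without pMT replicate 3) to 0.68 and Igfbp2 from -1.59 to 0.0347 (without surgery replicate 2). Library size only moved the median log2 fold change of all genes to 0.25 in surgery against control, 0.27 in VitD against control, -0.12 in pMT against surgery, -0.32 in pMT/VitD against surgery and -0.34 in pMT/VitD against VitD.

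Over all genes, calls for any difference ran from 1080 to 5125 under the alternatives (2035 as reported), for surgery against control from 8 to 5289 (266), for VitD against control from 13 to 2795 (1492), for pMT against surgery from 27 to 747 (334), for pMT/VitD against surgery from 122 to 3462 (1279), for pMT/VitD against pMT from 0 to 3136 (0) and for pMT/VitD against VitD from 1816 to 5758 (3766). Over 24 same-numbered pairs the deviations from group means correlated at -0.50 to 0.17, and 2 exceeded 0.1. Over 64 other-numbered pairs they correlated at -0.29 to 0.43, and 8 exceeded 0.1. No pairing by replicate number was thus seen. These correlations cannot exclude it, since in groups of 2 libraries the deviations mirror each other. With the replicate block, Igfbp4 had an adjusted p of 0.0643 for any difference and 0.143 in pMT/VitD against surgery, and Igf1 0.0610 in pMT/VitD against VitD (edgeR).

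With 2 control and 2 surgery libraries, the spread came mostly from the other groups. Igfbp2 was too shallow for any comparison.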
